A study of Danio rerio with 4 samples.

Results

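The regions described here are narrow peaks of open chromatin that were listed in control embryos and not in actl6a morphants. They come from ATAC-seq of the pronephric duct, the tubule of the zebrafish embryonic kidney, at 30 hours post fertilization. A peak was taken when it stood in the control peak list on chromosomes 1 to 25, overlapped no peak of the actl6a list by 1 bp or more, and was under 800 bp wide. Chromosome 4 beyond 30 Mb was left out. This gave 12511 peaks, 51.9% of the 24109 peaks of the control list, out of 29639 regions in both lists together. The peaks were selected in the control group, so a lower signal in actl6a libraries is partly fixed by their choice. Their signal in the groups is therefore given as a description. Counts and p-values of a fit over all regions are quoted further on for the same peaks, and since the choice used the contrast that was fitted, they carry no evidence of a difference.

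The actl6a group held 2 libraries from embryos that received an antisense morpholino against actl6a at the 1-cell stage, with the genotype given as actl6a knockdown. The control group held 2 libraries from embryos that received a standard control morpholino at the same stage, with the genotype given as WT. All embryos carried a transgene, Na,K-ATPase alpha1A4:GFP, that labels the pronephric epithelium. Per the labels, 15 embryos were digested for duct isolation, about 10 fragments were picked by their fluorescence, and 10000 to 20000 viable cells made a sample. No step beyond picking by eye is named for separating duct cells from neighbouring cells. The morpholino blocks translation, so chromatin data hold no check of how far the protein was depleted. The labels do not say whether the libraries of a group came from separate clutches, and any spread between them may be technical.

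In ATAC-seq a transposase inserts adapters into DNA that nucleosomes do not shield, and sites of many insertions mark promoters, enhancers and other regulatory elements. Actl6a, known in mammals as BAF53A, is an actin-related subunit of SWI/SNF (BAF) remodelling complexes, which use ATP to slide or evict nucleosomes. The same protein is part of other complexes such as INO80 and TIP60. The study asks which regions change in accessibility when actl6a is knocked down. Narrow peaks are commonly the size of single nucleosome-free elements, while wide peaks often span adjoining elements.

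The depth inferred from the tracks was 148 and 165 M reads (M for mega) in the actl6a libraries and 117 and 136 M in the control libraries. Values are given relative to the genome mean, so that 1 is the mean signal of that library over the named chromosomes. The median peak of the set held 73.5 and 75.5 inferred reads in the actl6a libraries and 95.0 and 101 in the control libraries. In 95 of the 12511 peaks at least 1 library held under 10. Genes, sequences and the markers of duct or other cells were not analysed at these peaks, because the gene table at hand belongs to another genome build.

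Narrow control-only peaks kept a visible but lower signal in actl6a libraries. Their median signal was 1.61 and 1.49 times the genome mean in actl6a replicates 1 and 2, against 2.66 and 2.42 in control replicates 1 and 2. The group values were 1.55 ± 0.0861 in actl6a libraries and 2.54 ± 0.170 in control libraries (SD, n = 2 each). The medians of both actl6a libraries were below both control medians. The choice of the peaks favours this order, so the gap is not weighed against the spread within groups. The middle of the distribution ran from 1.16 to 2.15 in actl6a replicate 1 and from 1.11 to 1.91 in replicate 2, as lower and upper quartiles. In the control libraries the quartiles were 2.12 and 3.37 in replicate 1 and 1.94 and 3.01 in replicate 2. Fewer cells with an open site and a less open site in each cell cannot be told apart in such bulk libraries.

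**Figure D1:**
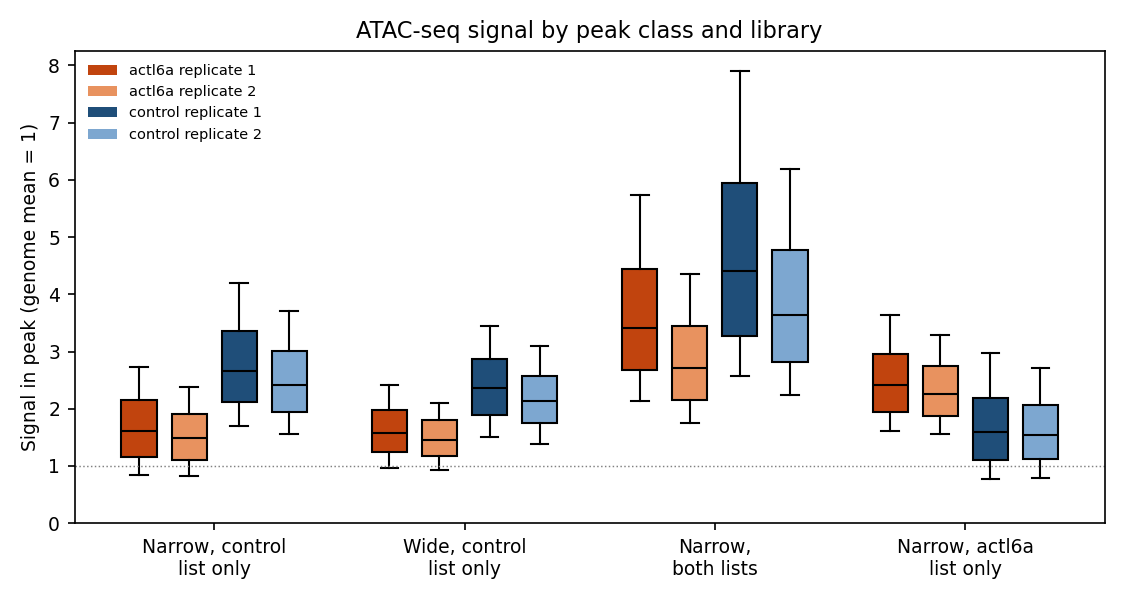
Signal in peaks (vertical axis, genome mean = 1) for 4 classes of peak in the 4 libraries; boxes span the quartiles with a line at the median, and whiskers reach the 10th and 90th percentiles over peaks. In narrow peaks of the control list only, the medians were 1.61 and 1.49 in actl6a libraries and 2.66 and 2.42 in control libraries, below the medians of narrow peaks in both lists in every library.

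Signal above the surroundings remained in actl6a libraries at many of these peaks. Signal was compared with flanks 1000 to 3000 bp outside each peak, leaving out bins inside any peak. The flanks themselves were near 0.9 in every library, at 0.913 ± 0.00303 in actl6a libraries and 0.876 ± 0.00450 in control libraries (SD, n = 2 each, of library medians). The median peak was 1.78 and 1.63 times its flanks in the actl6a libraries and 3.09 and 2.77 times in the control libraries. In 5217 peaks (41.7%) both actl6a libraries reached at least 1.5 times the flanks, and in 2218 (17.7%) both reached at least 2 times. For both control libraries these counts were 11201 (89.5%) and 8602 (68.8%). Over all regions these shares were 66.7% and 43.4% for both actl6a libraries and 82.8% and 65.5% for both control libraries. At the other end, both actl6a libraries lay under the flanks in 532 peaks (4.25%), against 13 peaks (0.104%) for both control libraries. Over all regions those shares were 2.18% and 1.17%. The choice of peaks favours the gap between groups, so nothing is read from it. Flanks hardly differed between groups, with a median log2 change of 0.030.

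The median profiles were highest at the peak midpoint in all 4 libraries. At the midpoint the median signal was 1.65 and 1.48 in actl6a libraries and 2.94 and 2.58 in control libraries. At 1000 bp beyond it the values were 0.769 and 0.791 in actl6a libraries and 0.751 and 0.779 in control libraries. The brightest 50 bp bin of the actl6a mean lay within 100 bp of that of the control mean in 64.8% of the peaks. Between the actl6a replicates this share was 51.8%, and between the control replicates it was 68.3%. In narrow peaks of both lists, which are brighter, it was 87.2% between the group means, 79.3% between the actl6a replicates and 80.1% between the control replicates. Means of 2 libraries vary less than single libraries, so these shares do not show whether the place of the brightest bin differed between groups.

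**Figure D2:**
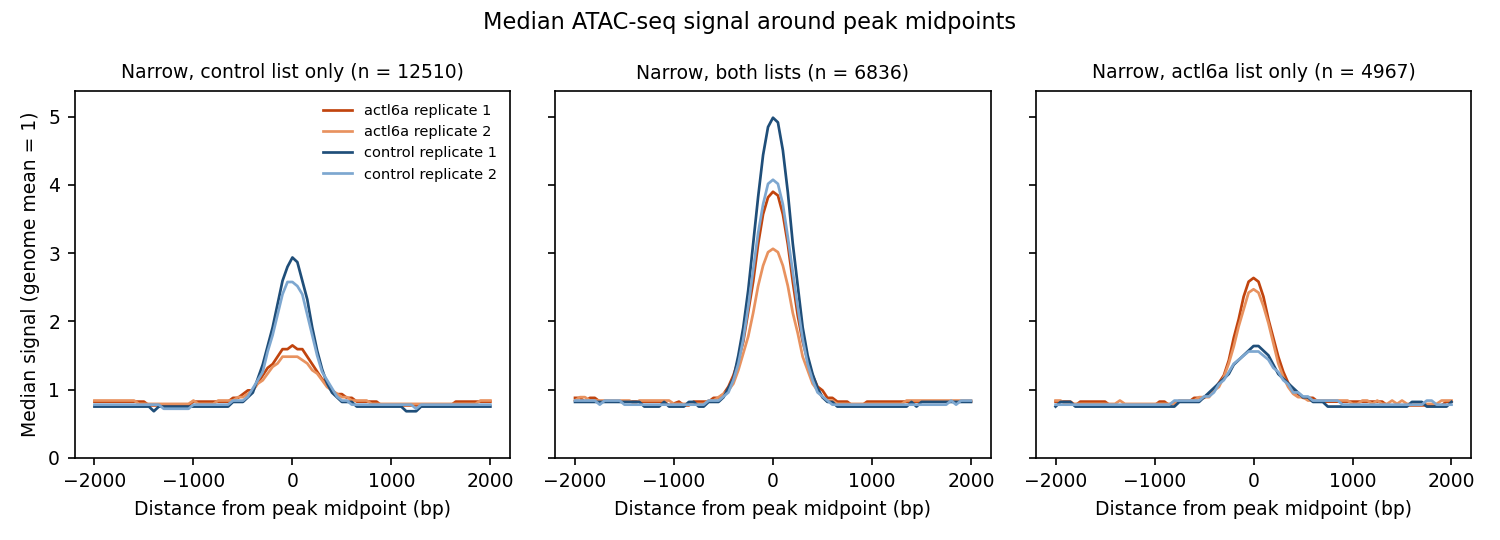
Median signal (vertical axis, genome mean = 1) against distance from the peak midpoint in bp, for narrow peaks in the control list only, in both lists and in the actl6a list only; each line is 1 library. In the first panel the actl6a lines reach 1.65 and 1.48 at the midpoint and the control lines 2.94 and 2.58, and the third panel shows the order turned round, with 2.64 and 2.47 in actl6a libraries and 1.64 and 1.56 in control libraries.

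Narrow peaks that stood in the actl6a list only had signal in the opposite order. There were 4967 of them, chosen by the same overlap and width in the other direction. Their median signal was 2.41 and 2.26 in actl6a libraries and 1.59 and 1.55 in control libraries. Relative to flanks, the group that did not list the peak still showed 1.70 ± 0.105 for the narrow control-only peaks, in actl6a libraries, and 1.75 ± 0.0495 for the narrow actl6a-only peaks, in control libraries (SD, n = 2 each). The residual signal over flanks in the group without the listing was thus of similar size in both directions. The rule kept each class out of that group's list, so both values depend on the choice and nothing further is read from them. The sizes of the log2 changes depended on the scaling. With the genome mean as scale, the median log2 change, actl6a over control, was -0.58 in the narrow control-only and 0.44 in the narrow actl6a-only peaks, and with scaling on the median signal of all regions it was -0.31 and 0.70. The sets differed in number, with 12511 narrow control-only and 4967 narrow actl6a-only peaks, and with 1 list per group these numbers have no replicate error.

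The log2 change, actl6a over control, was computed on the log2 scale after adding 0.5 to the signal, which understates the change of dim peaks. Its median over the narrow control-only peaks was -0.58, with quartiles of -0.80 and -0.37, against a median of -0.36 over all 29639 regions. The change was below 0 in 12186 peaks (97.4%) and above 0 in 325. The actl6a libraries were both under both control libraries in 8441 peaks (67.5%), where the share over all regions was 47.1%. Both lay above in 30 peaks (0.240%), where the share over all regions was 11%. In the remaining 4040 peaks (32.3%) the libraries of the groups overlapped. A change beyond -1 was found in 1338 peaks (10.7%), where the share over all regions was 4.9%. As the choice of peaks used the same contrast, nothing is read from these shares.

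With each library scaled on the median signal of all regions in place of its genome mean, the median over all regions became -0.083 and that over the narrow control-only peaks -0.31. Both actl6a libraries were then below both control libraries in 40.8% of the peaks, and in 25.3% of all regions. The 30 peaks with both actl6a libraries above became 288.

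Replicate spread set a limit on single peaks. The absolute log2 difference between the 2 libraries of a group had a median of 0.35 in the actl6a group and 0.35 in the control group. In 4073 peaks (32.6%) the change between groups was smaller than the difference between the control libraries, where the share over all regions was 40.5%. The control libraries differed at least 2-fold in 1565 peaks (12.5%), with replicate 1 higher in 1095 and replicate 2 higher in 470. In narrow peaks of both lists such 2-fold differences between control libraries made up 7.22%, and over all regions 11.1%. The actl6a libraries differed at least 2-fold in 2110 of the narrow control-only peaks (16.9%), against 8.74% of narrow peaks in both lists and 11.6% of all regions. In narrow actl6a-only peaks this share was 10.7% for the actl6a libraries and 21.3% for the control libraries. In both classes the group without the listing, where signal was lower, thus had the larger share. In the 1565 narrow control-only peaks whose control libraries differed at least 2-fold, both actl6a libraries were under both of them in 486 (31.1%). In the other 10946 they were so in 7955 (72.7%). The median of control replicate 2 was 1.69 in the former and 2.47 in the latter, and a lower control library leaves less room under it. The share over all regions was not taken for this split, so nothing is read from the gap.

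Fitted over all 29639 regions with limma, 28 of the narrow control-only peaks (0.224%) had an adjusted p under 0.05, all lower in actl6a libraries. The choice of peaks largely fixes this direction and lowers these p-values, for single peaks too, so the counts are descriptive. Over all regions 0.132% were called in that direction and 0.233% in either. In the higher direction 0 were called, against 0.101% over all regions. At an adjusted p under 0.1 limma called 757 (6.05%), against 3.67% over all regions. Without adjustment, p was under 0.05 in limma for 4251 lower peaks (34.0%), where the share over all regions was 18.4%, and for 0 higher ones, where it was 4.41%. The 28 calls lay on 16 chromosomes and had a median width of 274 bp. Their log2 changes ran from -1.92 to -1.50, and their flanks were 0.932 in actl6a and 0.880 in control libraries at the median. The 29639 regions include those beyond 30 Mb on the long arm of chromosome 4. When these were left out of the fit, 3 of the 28 kept an adjusted p under 0.05 in limma. The count also moved when 1 library was left out of the fit. That leaves 1 library in a group, and the share over all regions was not taken there. Those counts are given further on only as a range among the processing settings, and nothing is read from them.

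Coordinates of single peaks are those of GRCz11, counted from 1. The 5 with the largest decrease, among those with separate groups and a control mean of at least 2, were all called in limma and had actl6a signal between 0.127 and 1.06. At chromosome 7, 47528783 to 47529052, signal was 0.127 and 0.546 in actl6a libraries and 1.92 and 3.40 in control libraries, which is -1.92 as a log2 change, with an SE of 0.433 and an adjusted p of 0.0450 in limma. At chromosome 6, 45743074 to 45743330, it was 0.166 and 0.434 in actl6a libraries and 2.17 and 2.75 in control libraries. The actl6a libraries were below the genome mean at both sites, and the flanks of both were between 0.708 and 0.925 in the 2 groups.

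The decrease with the smallest adjusted p lay at chromosome 9, 4713856 to 4714086. There signal was 0.571 and 0.867 in actl6a libraries and 3.89 and 4.14 in control libraries, which is -1.90 as a log2 change, with an SE of 0.338 and an adjusted p of 0.0180 in limma. It was picked by its decrease from a set chosen on the same contrast, so the gap is not weighed against the spread within groups. This peak was 1 of the 3 calls kept without the long arm of chromosome 4, with an adjusted p of 0.0459 in limma. At chromosome 9, 34641221 to 34641455, signal was 0.550 and 0.194 in actl6a libraries and 2.55 and 2.77 in control libraries. At chromosome 22, 7672221 to 7672756, it was 1.06 and 0.541 in actl6a libraries and 6.20 and 2.75 in control libraries, so that the control libraries differed more than 2-fold. That call and the one at chromosome 15, 10150900 to 10151127, were the others kept. The last had 0.639 and 0.596 in actl6a libraries and 3.30 and 3.54 in control libraries, with the replicates close in both groups.

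**Figure D3:**
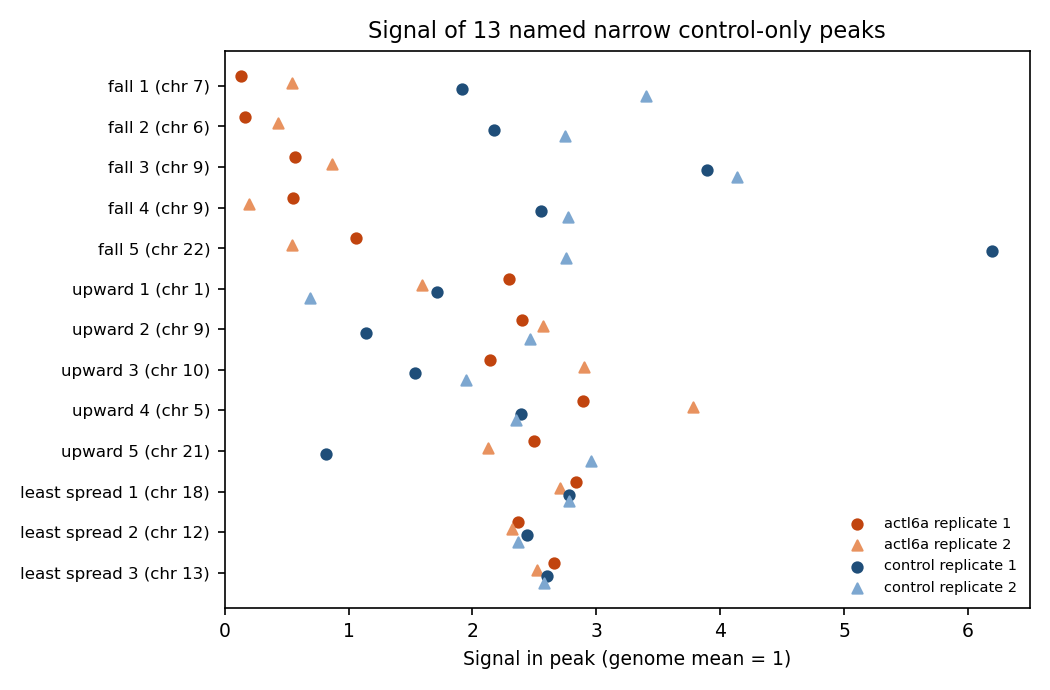
Signal (horizontal axis, genome mean = 1) of 13 single narrow control-only peaks in each library: 5 with the largest decrease, 5 with the largest change upward and 3 with the least spread between all libraries. In the 5 decreases the actl6a points lie between 0.127 and 1.06 and the control points between 1.92 and 6.20; in the 3 peaks of least spread all points lie between 2.32 and 2.84.

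The 5 peaks at the upward end were in the control list although their mean signal was higher in actl6a libraries. At chromosome 1, 51978386 to 51978898, signal was 2.29 and 1.60 in actl6a libraries and 1.72 and 0.686 in control libraries, which is 0.58 as a log2 change, with an SE of 0.376 and an adjusted p of 0.328 in limma. At chromosome 21, 40423064 to 40423525, it was 2.50 and 2.13 in actl6a libraries and 0.821 and 2.95 in control libraries. The groups overlapped at both sites, and a control library lay below both actl6a libraries. At chromosome 9, 25135241 to 25135718, the values were 2.40 and 2.57 in actl6a libraries and 1.14 and 2.46 in control libraries. At chromosome 10, 3586089 to 3586549, both actl6a libraries, at 2.14 and 2.90, lay above both control libraries, at 1.53 and 1.94. The same held at chromosome 5, 49627618 to 49627846, with 2.89 and 3.78 in actl6a libraries and 2.40 and 2.35 in control libraries. None of the 5 passed the threshold, with adjusted p from 0.328 to 0.483 in limma.

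Some peaks had the same signal in all libraries and still stood in the control list only. At chromosome 18, 22563238 to 22563621, signal was 2.84 and 2.71 in actl6a libraries and 2.78 and 2.78 in control libraries. At chromosome 12, 5455586 to 5456032, it was 2.37 and 2.32 in actl6a libraries and 2.44 and 2.37 in control libraries. At chromosome 13, 48987730 to 48988130, it was 2.66 and 2.52 in actl6a libraries and 2.60 and 2.58 in control libraries. These 3 had the least spread among narrow control-only peaks whose mean over all libraries reached 2.

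The brightest of the peaks differed little between groups at the median. In 22 of them the control mean reached at least 10 times the genome mean. Their log2 change had a median of -0.066 and ran from -0.92 to 0.37. Their median signal was 73.7 and 78.9 in actl6a libraries and 82.6 and 82.5 in control libraries. Their flanks were also bright, at 20.8 in actl6a and 21.6 in control libraries. The groups overlapped in 15 of the 22, where the share was 32.3% over all narrow control-only peaks and 41.8% over all regions. The brightest, at chromosome 7, 53014984 to 53015219, had 552 and 629 in actl6a libraries and 568 and 593 in control libraries, with flanks of 121 in actl6a and 126 in control libraries. At chromosome 14, 20097420 to 20097953, signal was 206 and 231 in actl6a libraries and 235 and 254 in control libraries. At chromosome 8, 34786735 to 34787012, it was 209 and 232 in actl6a libraries and 223 and 250 in control libraries. The last 2 of the 5 brightest, at chromosome 7, 64610077 to 64610493, and at chromosome 3, 55353902 to 55354191, were between 181 and 235 in all libraries. How reads from repeated sequence were placed is not given in the sources used here, and its part in these values was not tested.

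Set beside narrow peaks of both lists, the narrow control-only peaks were dimmer in control libraries too. The 6840 narrow peaks in both lists had medians of 3.41 and 2.71 in actl6a libraries and 4.40 and 3.65 in control libraries. Percentile 10 of their mean actl6a signal was 2.10, a level that 2343 of the narrow control-only peaks (18.7%) reached. The same percentile of mean control signal was 2.58, which 5789 of them (46.3%) reached. The median of the narrow peaks in both lists was reached by 873 narrow control-only peaks (6.98%) in control signal and by 293 (2.34%) in actl6a signal. The classes thus overlapped only in part in the control libraries. They overlapped less in actl6a libraries, as the use of the actl6a list in the choice entails.

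Signal is also given within bins of the control mean. At equal control signal the classes differ by whether the actl6a list holds the peak, so a lower change in the narrow control-only peaks follows from their choice. At a control mean of 2 to 3 the median log2 change was -0.57 over 7396 narrow control-only peaks and -0.15 over 1370 narrow peaks in both lists. At 3 to 4 the values were -0.65 over 2385 and -0.29 over 1953 peaks, and at 4 to 6 they were -0.75 over 792 and -0.42 over 2318. The bins are set on the control mean, which is also the denominator of the change, and the added 0.5 shrinks changes in dim bins, so no trend with control signal is read from them. In the narrow control-only peaks of 6 or more it was -0.73 over 88 peaks, which include the 22 brightest.

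**Figure D4:**
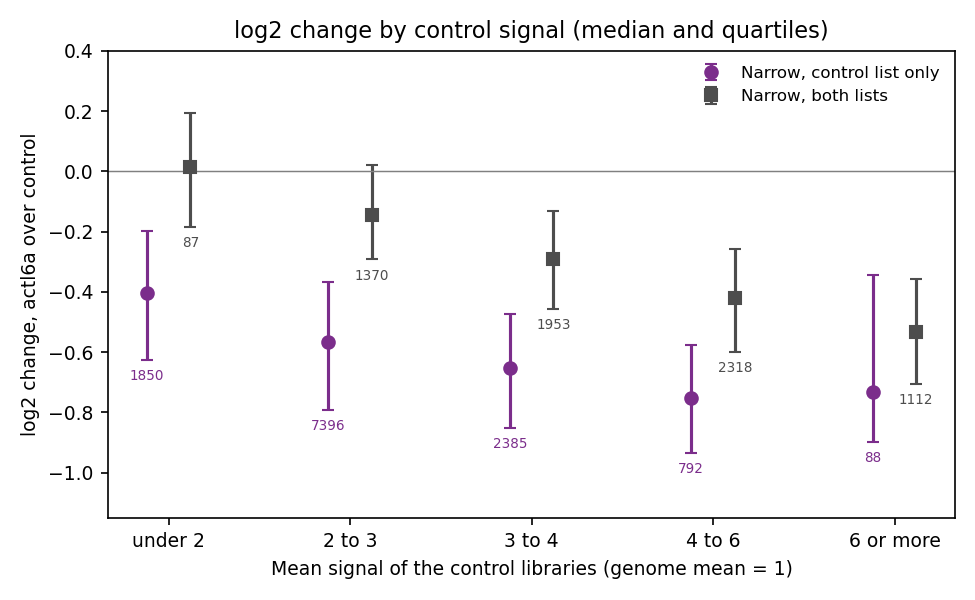
log2 change, actl6a over control (vertical axis), by the mean signal of the control libraries (horizontal axis, genome mean = 1) for narrow peaks in the control list only and in both lists; points are medians over peaks, bars span the quartiles and the small numbers count peaks. The narrow control-only medians run from -0.40 under 2 to -0.75 at 4 to 6, and lie below those of narrow peaks in both lists in every bin.

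Control signal varied with width more than actl6a signal did. Width and listing both come from the control list, so this may follow from the choice and no trend with width is read from it. The peaks were 203 to 799 bp wide, with a median of 427 bp, and covered 5.60 Mb. At 200 to 299 bp (2521 peaks) the medians were 1.61 and 1.52 in actl6a libraries and 2.89 and 2.69 in control libraries. At 700 to 799 bp (946 peaks) they were 1.60 and 1.46 in actl6a libraries and 2.42 and 2.27 in control libraries. Between these widths the median log2 change went from -0.67 to -0.49. Just beyond the width limit, at 800 to 899 bp, 638 control-only peaks had medians of 1.60 and 1.47 in actl6a libraries and 2.41 and 2.21 in control libraries, with a median log2 change of -0.46, so that the limit of 800 bp marks no step in signal.

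**Figure D5:**
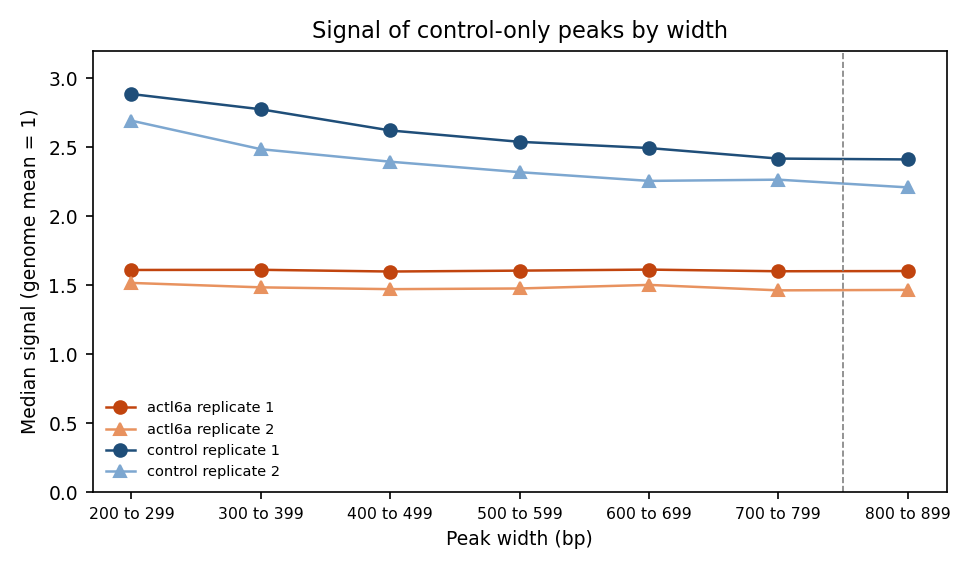
Median signal of control-only peaks (vertical axis, genome mean = 1) by peak width in bp, 1 line per library, with a dashed line at the limit of 800 bp. The actl6a lines stay between 1.46 and 1.61 at all widths, while the control lines are at 2.89 and 2.69 for the narrowest and at 2.42 and 2.27 for the widest peaks inside the limit.

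The log2 changes of single peaks on either side of the limit overlapped in range. With 3 peaks on each side, no likeness or difference is read from them. The 3 widest, each 799 bp, were at chromosome 16, 22864223 to 22865021, with a log2 change of -0.39, at chromosome 17, 28217691 to 28218489, with -0.65, and at chromosome 19, 8612718 to 8613516, with -0.56. The 3 narrowest beyond the limit, each 800 bp, were at chromosome 12, 34228579 to 34229378, with -0.60, at chromosome 16, 10052764 to 10053563, with -0.31, and at chromosome 24, 13272686 to 13273485, with -0.27.

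The narrow control-only peaks were spread over all 25 chromosomes. Their density ran from 8.28 per Mb on chromosome 12 to 11.6 per Mb on the analysed part of chromosome 4, and they made up 49.8% to 56.0% of the control list on each chromosome. The median log2 change lay between -0.61 on chromosome 3 and -0.52 on chromosome 17. Both actl6a libraries were below both control libraries in 62.8% to 71.9% of the peaks of a chromosome, an order that the choice of peaks favours. That share was 47.1% over all regions and was not taken over all regions by chromosome. No chromosome stood apart in these descriptions.

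Distances to the actl6a list were close to those of control-only peaks of 800 bp or more, which overlap none of its peaks either. The median distance to the nearest actl6a peak was 27411 bp, against 26969 bp for those wider peaks. In 3895 of the narrow control-only peaks (31.1%) none lay within 50000 bp, against 31.0% of the wider ones. In 117 peaks (0.935%) an actl6a peak lay within 500 bp, so that few had a neighbour in the actl6a list that close. The median log2 change was -0.53 in those 117 peaks and -0.60 in 1484 peaks at 501 to 5000 bp. It was -0.57 in 7015 peaks at 5001 to 50000 bp and -0.59 in the 3895 distant ones, with no steady trend. Distant peaks were dimmer in both groups, with medians of 1.44 and 1.38 in actl6a libraries and 2.51 and 2.27 in control libraries. Peaks more than 500 and up to 5000 bp from an actl6a peak had 2.05 and 1.72 in actl6a libraries and 3.26 and 2.91 in control libraries. The nearest other control peak was 16925 bp away at the median. It was 16633.5 bp away for control-only peaks of 800 bp or more and 10395 bp for narrow peaks in both lists.

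These peaks made up 51.9% of the control list, so runs of consecutive ones arise even without clustering, which was not tested. Such runs had no listed actl6a counterpart at any control peak. The longest held 17 control peaks in a row, all narrow and control-only, at chromosome 10 from 29892309 to 31624751. Their medians were 1.60 and 1.34 in actl6a libraries and 2.37 and 2.31 in control libraries, and both actl6a libraries were below both control libraries in 14 of the 17. That share was 67.5% over all narrow control-only peaks and 47.1% over all regions. That stretch was not empty in the actl6a list, which had 3 peaks there. A run of 16 lay at chromosome 19 from 37459051 to 39198456, with medians of 1.32 and 1.19 in actl6a libraries and 2.50 and 2.58 in control libraries and 7 peaks of the actl6a list in between. The densest window of 100 kb, at chromosome 7 from 5900001 to 6000000, held 7 narrow control-only peaks beside 9 actl6a peaks. Of 12983 such windows, 5245 (40.4%) held none and 70 held at least 5.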

How the data were processed

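Each of the 4 libraries has a coverage track, and each group has 1 peak list. The authors deposited the tracks as signal in 50 bp bins. Bowtie2, Trim Galore, FastQC, deepTools and MACS2 and the build GRCz11 are named, without role or version, per the submitters' processing notes. The read filters, duplicate handling, shift for the transposase, normalization, peak threshold and pooling of replicates are not given in the sources used here. Low values (up to 20 steps) were whole multiples of a step per library in 99.9992% or more of cases, within 0.1 of a step. The steps fit reads per kilobase of bin and per mega of reads, from which depth was inferred; reads need not be independent molecules.

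Tracks were scaled to their own mean on chromosomes 1 to 25, and the signal of a peak is the length-weighted mean. All regions of both lists, merged where they overlapped by 1 bp, were fitted with limma 3.58.1 (R 4.3.3, lmFit, eBayes with trend, 2 residual and 32.9 prior degrees of freedom) on log2(scaled signal + 0.5), two-sided, with Benjamini-Hochberg adjustment over all of them. The step was tested on simulated data for the sign and size of planted changes. Those data held no choice of peaks by a list, so the test does not bear on the counts in the chosen peaks. Flank bins inside peaks were left out. Python 3.11.15, numpy 2.4.6, pandas 2.3.3 and matplotlib 3.10.9 were used otherwise.

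Peaks named singly were the 5 with the highest control mean, the 5 with the largest decrease among those with separate groups and a control mean of at least 2, the 5 with the largest change upward, the 3 with the least spread among those with a mean of at least 2, and the 3 on each side of the width limit. The called peak at chromosome 15, the runs and the densest window were chosen after values were seen. The set of peaks and all rules were chosen with earlier results of these data known. Annotation, cell type markers, GC content and motifs were planned and were not analysed here, since the gene table at hand is of the build GRCz12tu.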

Additional observations from a re-analysis of the deposited data

How the results depend on the processing

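The number of narrow control-only peaks, 12511, was between 10065 (limit of 600 bp) and 13529 (1000 bp); leaving out a library could not be tried for it, as each group has 1 list. The median log2 change, -0.58, was below 0 under all settings tried, a sign largely fixed by the choice of the peaks. It was -0.31 with scaling on the median of all regions, -0.67 without scaling, and -0.69, -0.48 and -0.36 with pseudocounts of 0.1, 1 and 2; without 1 library it ran from -0.65 to -0.52. Both actl6a libraries were below both control libraries in 8441 peaks (67.5%), where the share over all regions was 47.1%. With scaling on the median of all regions this became 5101 (40.8%), where the share over all regions was 25.3%. A filter on mean signal, at 2 or more, left 6557 peaks, of which 4243 had this order. The share over all regions was not taken under the filter, so nothing is read from that count. Nor was it taken without 1 library, where fewer values need to be apart, so those counts are not given.

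The share called over all regions is given only for the main fit, so counts under other settings are not read as particular to these peaks. The count of limma calls, 28, was the least stable. It was 0 with scaling on the median of all regions (1516 at an unadjusted p under 0.05) and 0 over 200 bp at the midpoint (3177), 1 without scaling, 1, 128 and 122 with pseudocounts of 0.1, 1 and 2, 15 for the highest bin, 18 with a mean signal of at least 2, 159 without trend, 757 at an adjusted p under 0.1, and 3 without chromosome 4 beyond 30 Mb. Without 1 library it ran from 77 to 473; the lone library is then assumed to vary like the other group. The cause of these changes was not tested, except that the filter left fewer peaks. A replicate block in limma gave 1572 (1571 lower), but the labels state no pairing. The differences between replicates 1 and 2 correlated between groups at r = 0.026 across the peaks. This measure leaves out an offset common to all peaks. Replicate 1 was above replicate 2 by a median log2 difference of 0.092 in actl6a and 0.124 in control libraries. Over all regions these values were 0.159 and 0.152. The source of this offset was not tested.

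Signal over flanks, 1.70 in actl6a and 2.93 in control libraries, was 2.52 and 4.04 for the highest bin, and ran from 1.63 to 1.78 in actl6a and from 2.77 to 3.09 in control libraries without 1 library, a setting added after the results were seen. The other planned settings moved it by less than the spread between replicates. Depth limits single peaks, at 73.5 to 101 inferred reads in the median peak.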

Other observations

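The same rule applied beyond 30 Mb of chromosome 4 picked 132 further narrow control-only peaks, which are not among the 12511. They are among the 29639 regions fitted in limma. There 8 of them (6.06%) had an adjusted p under 0.05, against 28 (0.224%) of the 12511. Over all regions limma called 0.132% as lower and 0.233% in either direction. The share over all regions of that arm was not taken. The 132 peaks too were chosen by the contrast fitted, so nothing is read from their count. Their median signal was 1.40 and 1.35 in actl6a libraries and 2.67 and 2.42 in control libraries, with a median log2 change of -0.56. Their flanks were 0.876 ± 0.00542 in actl6a libraries and 1.05 ± 0.0315 in control libraries (SD, n = 2 each, of library medians), a median log2 change of -0.094 where the narrow control-only peaks elsewhere had 0.030. A change beyond -1 was found in 30 of the 132 (22.7%), against 10.7% of the 12511 and 4.9% of all regions.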
